A study of Mus musculus with 12 samples.

Results

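The BCL2 family genes described here are 10 genes of mouse splenic B cells, taken by name from a table of 43629 genes. They comprise 5 pro-survival genes (Bcl2, Bcl2l1, Mcl1, Bcl2a1b and Bcl2a1d), 2 effector genes (Bax and Bak1) and 3 BH3-only genes (Bcl2l11, Bbc3 and Pmaip1). All 10 were found by symbol, and all 10 passed the filter on low counts in each comparison. RNA-seq read counts were available for 12 libraries, 4 in each of 3 groups of sorted cells. The first group was marginal zone (MZ) B cells of genotype Zfp36l1fl/flERT2cre/+ (replicates 1, 2, 7 and 8), called deficient MZ B cells below. The second was MZ B cells of genotype ERT2cre/ERT2cre (replicates 3 to 6), called control MZ B cells. The third was follicular (FO) B cells of genotype Zfp36l1fl/fl cre- (replicates 3, 4, 7 and 8). All 3 groups were labelled with strain Zfp36l1tm1.1Tnr.

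Several features of the groups limit them as models. The deficient cells carried 1 copy of ERT2cre, a hormone-dependent Cre, where control MZ cells carried 2 and FO cells none, and the labels mention no inducing drug, no age and no promoter for the Cre. The gates are labelled B220+CD93+ for both cell types, with high CD21 and no CD23 for MZ cells and with both CD21 and CD23 for FO cells. CD93 marks immature B cells, and whether that part of the gate label is a typing error is not known, which limits what the sorted populations can be called. Cd93 itself averaged 0.712 ± 0.641 CPM in deficient MZ cells, 0.677 ± 0.279 CPM in control MZ cells and 19.7 ± 2.48 CPM in FO cells (SD, n = 4 each), where CPM are a gene's counts scaled to a fixed library total. Libraries of both MZ groups used a SMARTer kit with 5 ng of input RNA and were read as 100-base pairs, whereas the series' design text gives a stranded TruSeq kit and 100-base single ends for FO libraries. The sample labels name the SMARTer kit for all libraries, so the sources conflict on the FO kit. Cell type, any kit difference, read layout and Cre genotype therefore cannot be told apart between MZ and FO libraries. For control MZ cells, whose genotype label names no floxed allele, the floxed genotype of FO cells adds to these. Between deficient and control MZ cells, the floxed genotype and the number of ERT2cre copies differ together and cannot be told apart. The labels do not say that the libraries came from separate animals, so the p-values measure the spread between these libraries, which may be technical.

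The BCL2 family sets whether the mitochondrial outer membrane stays intact. BCL2, BCL-XL, MCL1 and A1 hold the effectors BAX and BAK in check, and BH3-only proteins such as BIM, PUMA and NOXA bind the pro-survival proteins or activate the effectors. When BAX or BAK forms pores, cytochrome c leaves the mitochondria and caspases are activated. Mature B cells depend on these genes for their lifespan, and the survival receptor for BAFF feeds into several of them. ZFP36L1, an RNA-binding protein whose gene is floxed in the deficient cells, binds AU-rich elements in the 3′ untranslated regions (UTRs) of mRNAs and promotes their decay.

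The libraries held 28938453 to 40664963 counts. All CPM levels are given after 1 scaling of all libraries by the trimmed mean of M-values (TMM). Zfp36l1 itself averaged 29.7 ± 6.49 CPM in deficient MZ cells and 117 ± 6.99 CPM in control MZ cells (SD, n = 4 each), against 372 ± 17.5 CPM in FO cells. Its log2 difference was -1.98 ± 0.13 (SE) between deficient and control MZ cells, with an adjusted p of 4.92e-07 by edgeR's quasi-likelihood test. Gm26669, annotated on the other strand, covers 55.9% of the exon bases of Zfp36l1. Cr2, the CD21 gene of the sort, averaged 3440 CPM in deficient MZ cells, 4100 CPM in control MZ cells and 1380 CPM in FO cells. Fcer2a, the CD23 gene, averaged 112, 128 and 1300 CPM in the same order. The 6 B cell markers examined summed to 13400 to 15200 CPM in deficient MZ cells, 12300 to 13500 CPM in control MZ cells and 10900 to 11300 CPM in FO cells.

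Because ZFP36L1 acts through AU-rich elements, the longest annotated 3′ UTR of each gene was searched for the heptamer TATTTAT, the DNA form of the element that proteins of this family bind. The search covered the mRNA strand only and let matches overlap. Bcl2 held 2 matches, Bcl2l1 1, Mcl1 3, Bcl2l11 2 and Pmaip1 4, and no match lay in the windows searched for Bcl2a1b, Bcl2a1d, Bax, Bak1 or Bbc3. Of 11408 tested genes with an annotated 3′ UTR, 29.3% held the heptamer, and their median 3′ UTR had 1146.5 bases. The family genes with a match had longer 3′ UTRs, of 1477 to 5086 bases, and those without had 147 to 1121 bases. The part of length in the matches was not tested. The first match of each of 4 genes is given in a window of 30 bases, 5′ to 3′ on the mRNA strand (GRCm38), with the heptamer in capitals. It begins at base 252 of the 3′ UTR in Bcl2, base 1236 in Bcl2l1, base 70 in Mcl1 and base 2791 in Bcl2l11.
Bcl2: aaaaaaagattTATTTATttaagacagttc
Bcl2l1: aagcgtgtctgTATTTATgtgtgaggagct
Mcl1: gaaaacatgtgTATTTATgaaggtggactt
Bcl2l11: tatattttgacTATTTATtagattagaaag

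The first comparison set deficient against control MZ B cells. It addresses what accompanied the loss of Zfp36l1 together with the difference in ERT2cre copies. Of the 10 BCL2 family genes, 1 rose, none fell and 9 did not pass an adjusted p of 0.05. Over all 13987 genes tested, 3.7% passed, 2.29% higher and 1.4% lower in deficient cells. The median log2 difference was 0.08 over the 10 genes and 0.00 over all genes. At an unadjusted p under 0.05 the count was also 1 higher and 0 lower, and DESeq2 gave 1 higher and 0 lower.

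The gene that rose was Bax, which encodes a pore-forming effector (chr7:45461697-45466898, minus strand, GRCm38). It had 146, 119, 112 and 124 CPM in deficient MZ replicates 1, 2, 7 and 8, against 97, 99.3, 103 and 104 CPM in control MZ replicates 3 to 6. All 4 deficient libraries lay above all 4 control libraries, and replicate 1 lay above the other deficient libraries. The log2 difference was 0.30 ± 0.08 (SE; 95% interval 0.13 to 0.47), a 1.24-fold higher level, with an adjusted p of 0.0489 by edgeR's quasi-likelihood test. The call was lost when any 1 of 7 of the 8 libraries was left out, and held only without deficient replicate 7. Across these fits the log2 difference was 0.23 to 0.36 and the adjusted p 0.0356 to 0.124. The authors' deposited table lists Bax with a log2 fold change of 0.28 and an adjusted p of 0.0105, and no other of the 10 genes under 0.05.

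Some markers of other cells also rose in deficient cells, and their part in the difference of Bax was not tested. The 7 T cell markers summed to 2.06 to 4.61 CPM in deficient MZ libraries, against 0.736 to 0.876 CPM in control MZ libraries, and both of the 2 tested rose. The 6 erythroid and platelet markers summed to 10.4 to 32.7 CPM in deficient MZ libraries, against 7.75 to 22.1 CPM in control MZ libraries, and 1 of 6 rose. Deficient replicate 1 had the highest Bax level and the highest sum of both lists. Among MZ libraries it also had the highest sums of B cell (15200 CPM), FO (1580 CPM), macrophage and monocyte (35 CPM) and dendritic cell (16.9 CPM) markers. Its sums of MZ (6270 CPM) and plasma cell (7.93 CPM) markers were the lowest among MZ libraries. In control MZ libraries 3 of the 7 T cell markers (Cd3e, Cd4 and Cd28) were at 0 throughout, and in deficient MZ libraries these 3 and Cd3g had at most 2 counts each. Cd8a, with 0.638 to 3.16 CPM in deficient and 0.337 to 0.589 CPM in control MZ libraries, and Tcf7, with 0.333 to 1.84 CPM in deficient and 0.049 to 0.254 CPM in control MZ libraries, made up most of the T cell sums. No erythroid or platelet marker was at 0 in all libraries of a group. The 10 macrophage and monocyte markers summed to 24.2 to 35 CPM in deficient MZ libraries, against 23.3 to 27.8 CPM in control MZ libraries. Of 8 tested, Adgre1 rose (log2 difference 1.37, adjusted p 0.0148, edgeR) and 7 were not called. The 5 FO markers summed to 1290 to 1580 CPM in deficient MZ libraries, against 964 to 1110 CPM in control MZ libraries. Of these, 4 rose and Fcer2a was not called, at a log2 difference of -0.21. The 6 MZ markers summed to 6270 to 6920 CPM in deficient MZ libraries, against 7350 to 7700 CPM in control MZ libraries. Of these, Cd1d1 rose (log2 difference 0.56), Dtx1 fell (-0.40) and 4 were not called. In bulk RNA, fewer cells of a type and less RNA per cell cannot be told apart. A further annotated gene on the same strand, Gm45808, covers 12.2% of the exon bases of Bax.

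None of the 5 pro-survival genes passed the test, either by edgeR or by DESeq2, and none had an unadjusted p under 0.05 by edgeR. Mcl1 (chr3:95658788-95663176, plus strand), whose short-lived protein B cells need to survive, had 917, 998, 1030 and 981 CPM in deficient MZ cells, against 955, 910, 1070 and 1050 CPM in control MZ cells. The groups overlapped, and the log2 difference was -0.03 with a 95% interval of -0.18 to 0.12. This was the narrowest interval of the 10 genes. Bcl2 (chr1:106538178-106714274, minus strand), the founding pro-survival gene, had 150, 182, 197 and 200 CPM in deficient MZ cells, against 190, 185, 130 and 162 CPM in control MZ cells. Its groups overlapped too, with a log2 difference of 0.12 and an interval of -0.15 to 0.38.

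Bcl2l1 (chr2:152780668-152831728, minus strand), which encodes BCL-XL, was read at 83 to 191 counts per MZ library. It had 4.37, 2.31, 4.43 and 3.86 CPM in deficient MZ cells, against 2.72, 3.42, 2.72 and 2.67 CPM in control MZ cells. Deficient replicates 1, 7 and 8 lay above all control libraries, and replicate 2 lay below them all. Its log2 difference of 0.37 was larger than that of Bax, but its 95% interval ran from -0.09 to 0.83 and its adjusted p was 0.376 by edgeR's quasi-likelihood test.

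Bcl2a1b and Bcl2a1d are copies of A1, a pro-survival gene induced by NF-kappaB that mice carry in several near-identical copies. Bcl2a1b (chr9:89199209-89207827, plus strand) averaged 7.9 ± 1.62 CPM in deficient MZ cells and 7.82 ± 1.31 CPM in control MZ cells (SD, n = 4 each). Bcl2a1d (chr9:88723285-88731914, minus strand) averaged 19 ± 2.29 CPM in deficient MZ cells and 19.1 ± 1.5 CPM in control MZ cells (SD, n = 4 each). The 95% intervals of their log2 differences ran from -0.34 to 0.35 for Bcl2a1b and from -0.23 to 0.20 for Bcl2a1d.

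The other effector and the BH3-only genes gave intervals that spanned 0. Bak1 (chr17:27019810-27029009, minus strand), which encodes the effector BAK, stood at 44 to 91 counts per MZ library, with 2.65, 1.67, 1.74 and 1.4 CPM in deficient cells and 1.79, 1.91, 1.81 and 1.47 CPM in control cells. The log2 estimate was 0.09 with an interval of -0.43 to 0.60, the widest of the 10 genes. Bcl2l11 (chr2:128126038-128162547, plus strand), which encodes the BH3-only protein BIM that removes autoreactive lymphocytes, averaged 35.1 ± 3.22 CPM in deficient MZ cells and 36 ± 5.15 CPM in control MZ cells (SD, n = 4 each). Its log2 interval was -0.27 to 0.19.

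Bbc3 (chr7:16308393-16318205, plus strand) and Pmaip1 (on chromosome 18) encode PUMA and NOXA, BH3-only proteins known as targets of p53. Bbc3 had 11.1, 8.97, 10.4 and 10.6 CPM in deficient MZ cells, against 8.17, 7.35, 10.8 and 12.4 CPM in control MZ cells. Pmaip1 had 16.5, 15.1, 14.5 and 13.3 CPM in deficient MZ cells, against 19, 13.8, 13.4 and 9.42 CPM in control MZ cells. For both genes every deficient library lay within the range of the control libraries. The log2 intervals were -0.25 to 0.41 for Bbc3 and -0.27 to 0.44 for Pmaip1.

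**Figure D1:**
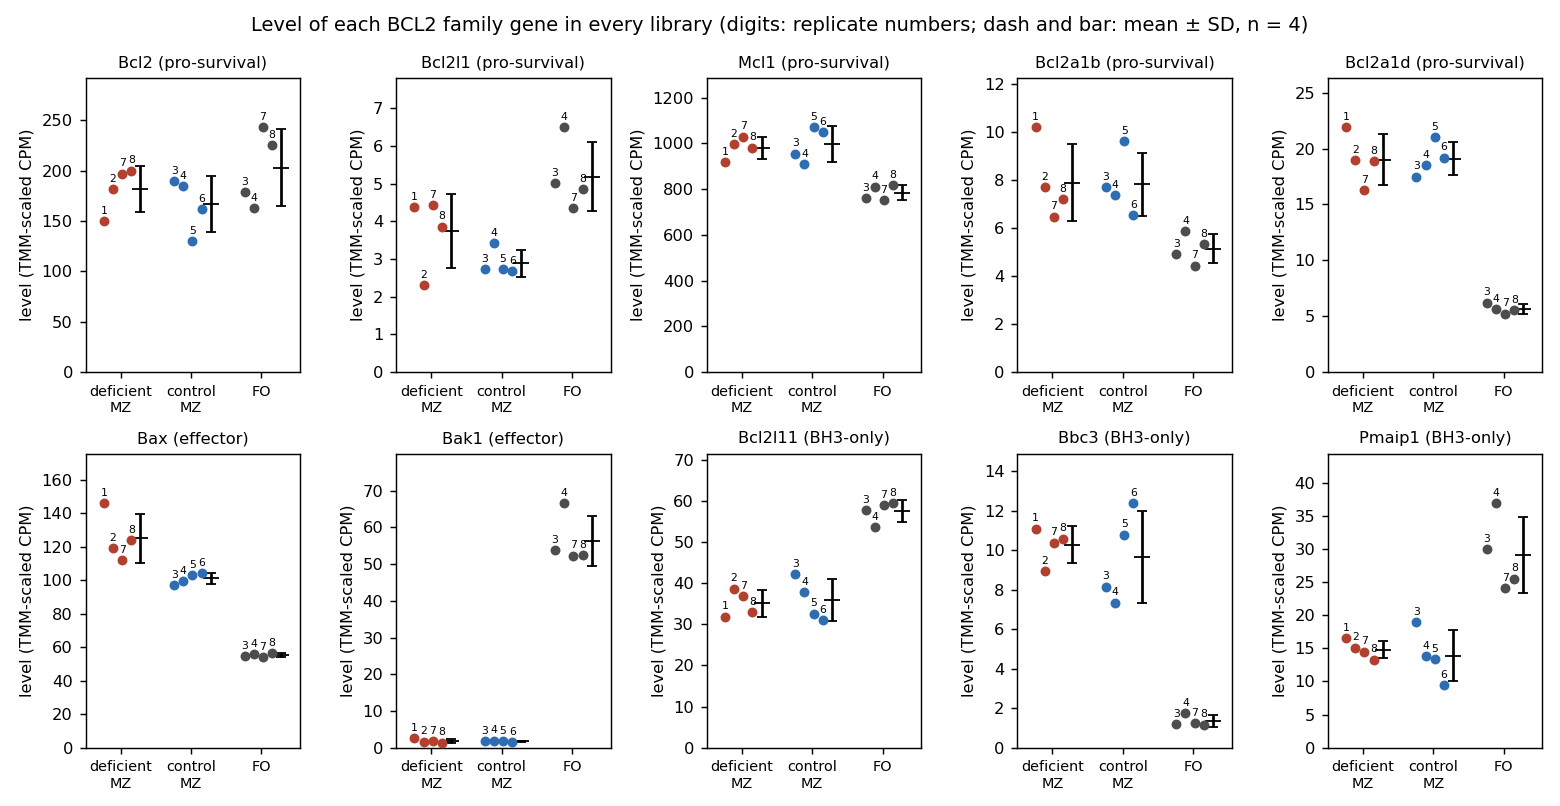
Level of each of the 10 genes in every library, in TMM-scaled CPM on a linear axis that starts at 0 in each panel, for deficient MZ, control MZ and FO libraries. Points are libraries with their replicate numbers, and the dash and bar beside them give the mean ± SD (n = 4); Bax is the 1 gene whose 3 groups all lie apart, at 112 to 146, 97 to 104 and 54.1 to 56.3 CPM, and Bak1 lies at 1.4 to 2.65 CPM in MZ libraries against 52.3 to 66.6 CPM in FO libraries.

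The second comparison set control MZ against FO B cells. Of the 10 genes, 5 were higher in control MZ cells, 4 were lower and 1, Bcl2, did not pass the test. The background is wide in this comparison: 81.5% of 13843 genes passed, 42.6% higher and 38.8% lower in MZ cells. The count of 9 of 10 stood near that share and is not a result about the family. The median log2 difference was 0.06 over the 10 genes and 0.05 over all genes. The sizes of the single differences, from a log2 difference of -4.99 for Bak1 to 2.87 for Bbc3, set the genes apart from each other. Markers of macrophages and monocytes summed to 23.3 to 27.8 CPM in control MZ libraries and 11.8 to 30.5 CPM in FO libraries, with 6 of 7 tested higher, and their part in the differences was not tested.

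The 2 effector genes differed in opposite directions. Bak1 had 1.79, 1.91, 1.81 and 1.47 CPM in control MZ cells, against 53.8, 66.6, 52.3 and 52.4 CPM in FO cells. The groups lay far apart, and FO replicate 4 was the highest library. The log2 difference was -4.99 ± 0.12 (SE), a 31.7-fold lower level in MZ cells, with an adjusted p of 4.45e-12 by edgeR's quasi-likelihood test. It ranked 128 from the lowest of 13843 genes. The authors' deposited table lists it at a log2 fold change of -4.97. Bax had 97 to 104 CPM in control MZ cells, against 54.1 to 56.3 CPM in FO cells, a log2 difference of 0.89 ± 0.04 (SE; adjusted p 2.14e-09, edgeR).

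Bak1 shares its locus with Ggnbp1 on the other strand, whose exons cover 25.5% of the exon bases of Bak1. The TruSeq kit that the design text gives for FO libraries marks strand, and the sources used here give no strand setting for the counting. Ggnbp1 averaged 13.5 ± 2.3 CPM in deficient MZ cells, 6.13 ± 0.823 CPM in control MZ cells and 9.8 ± 0.675 CPM in FO cells (SD, n = 4 each). The median log2 difference between control MZ and FO cells was 0.00 over the 423 tested genes that, like Bak1, have 20 to 30% of their exon sequence opposite another gene's exons, and 6 of these genes were as low as Bak1. Where the overlap was over 50%, the median over 224 genes was -0.63 and 38 genes were as low.

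Among the BH3-only genes, Bbc3 was higher and both others were lower in MZ cells. Bbc3 had 8.17, 7.35, 10.8 and 12.4 CPM in control MZ cells, against 1.2, 1.77, 1.25 and 1.17 CPM in FO cells. The FO libraries rest on 38 to 56 counts each. The log2 difference was 2.87 ± 0.21 (SE), a 7.29-fold higher level, with an adjusted p of 6.92e-08 by edgeR's quasi-likelihood test. Bcl2l11 had 42.3, 37.9, 32.6 and 31.1 CPM in control MZ cells, against 57.7, 53.6, 59 and 59.5 CPM in FO cells, with no overlap, a log2 difference of -0.65 ± 0.09 (SE; adjusted p 3.81e-05, edgeR). Pmaip1 had 9.42 to 19 CPM in control MZ cells, against 29.9, 36.9, 24.1 and 25.5 CPM in FO replicates 3, 4, 7 and 8, a log2 difference of -1.04 ± 0.19 (SE; adjusted p 0.000277, edgeR).

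Among the pro-survival genes, Mcl1 and both A1 copies were higher in MZ cells and Bcl2l1 was lower. Mcl1 averaged 998 ± 77.7 CPM in control MZ cells and 785 ± 33.4 CPM in FO cells (SD, n = 4 each), without overlap. The log2 difference of 0.37 ± 0.06 (SE; adjusted p 0.000108, edgeR) was the smallest of the 9 called. Bcl2l1 had 2.67 to 3.42 CPM in control MZ cells, against 5.02, 6.49, 4.34 and 4.86 CPM in FO cells, a log2 difference of -0.82 ± 0.17 (SE; adjusted p 0.000717, edgeR). Bcl2 had 190, 185, 130 and 162 CPM in control MZ cells, against 179, 163, 243 and 225 CPM in FO cells, and the groups overlapped. Its log2 difference was -0.25 with an interval of -0.56 to 0.06 and an adjusted p of 0.117 by edgeR. Without FO replicate 4 it passed, at -0.35 with an adjusted p of 0.0303.

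FO libraries with the lower Bcl2 levels also had the higher Pmaip1 levels and the higher sums of 9 immediate-early genes, transcripts that B cells induce within minutes of a stimulus. FO replicates 3 and 4 had 179 and 163 CPM of Bcl2, and FO replicates 7 and 8 had 243 and 225 CPM. The immediate-early sums were 513 and 550 CPM in replicates 3 and 4, and 263 and 251 CPM in replicates 7 and 8. In MZ cells the sums were 231 to 301 CPM in deficient and 229 to 245 CPM in control libraries. This pattern was picked after the values were seen, and its part in the comparisons with FO cells was not tested.

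**Figure D2:**
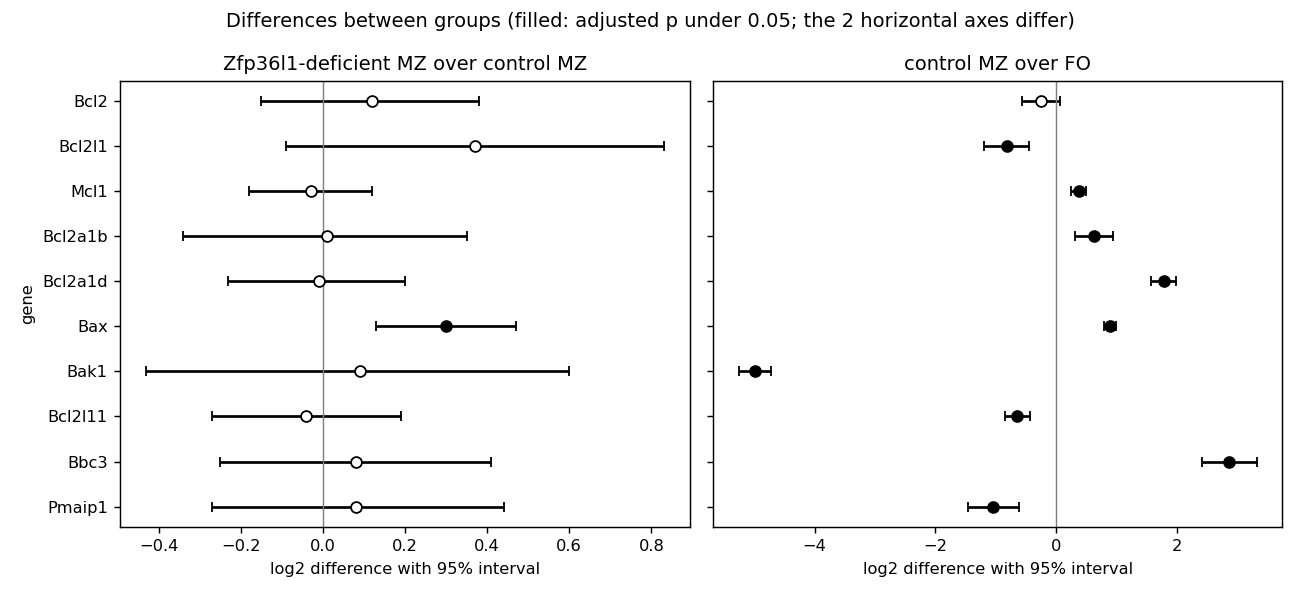
Log2 difference of each gene with its 95% interval, deficient MZ over control MZ on the left and control MZ over FO on the right, from edgeR; filled points have an adjusted p under 0.05. On the left Bax, at 0.30, is the 1 filled point, and on the right the points run from -4.99 (Bak1) to 2.87 (Bbc3) with Bcl2 alone open.

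Both A1 copies were higher in MZ than in FO cells, with the larger estimate for Bcl2a1d. Bcl2a1d had 17.5, 18.5, 21 and 19.2 CPM in control MZ cells, against 6.22, 5.64, 5.23 and 5.51 CPM in FO cells. Bcl2a1b had 7.72, 7.38, 9.64 and 6.53 CPM in control MZ cells, against 4.92, 5.86, 4.44 and 5.34 CPM in FO cells. Neither pair of groups overlapped, and the log2 differences were 1.78 ± 0.09 for Bcl2a1d and 0.63 ± 0.14 for Bcl2a1b (SE; adjusted p 3.84e-09 and 0.00141, edgeR). The difference between the copies was not itself tested. Of the counts given to the 4 A1 copies, Bcl2a1d took 69.2% in deficient MZ cells, 70.2% in control MZ cells and 52.2% in FO cells. Summed over the 4 copies, the log2 difference between control MZ and FO cells was 1.35.

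The division of A1 reads among copies is uncertain, as the sequences show. The coding regions of Bcl2a1b and Bcl2a1d have 519 bases and differ at 6, an identity of 98.8%. Of the stretches of 100 bases, 1 read length, in the Bcl2a1b transcript, 56.8% occur unchanged in another annotated gene, and for Bcl2a1d the share is 54.7%. A further gene on the same strand, Gm29094, covers 49.1% of the exon bases of Bcl2a1b. The first 60 coding bases of 3 copies on chromosome 9 (GRCm38) are given next, 5′ to 3′, to show how little separates them. Capitals mark the positions at which they differ.
Bcl2a1a: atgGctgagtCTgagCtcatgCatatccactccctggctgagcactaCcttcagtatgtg
Bcl2a1b: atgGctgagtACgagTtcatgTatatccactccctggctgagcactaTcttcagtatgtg
Bcl2a1d: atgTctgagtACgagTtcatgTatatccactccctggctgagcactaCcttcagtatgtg

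The third comparison set deficient MZ against FO cells and shares libraries with both others. Of the 10 genes, 5 were higher, 3 were lower and 2 (Bcl2 and Bcl2l1) did not pass, against a background of 81.3% of 13895 genes, 42.9% higher and 38.4% lower. Bak1 gave a log2 difference of -4.87 ± 0.16, Bbc3 2.97 ± 0.16, Bcl2a1d 1.79 ± 0.11 and Bax 1.22 ± 0.08 (SE). Bcl2l1 averaged 3.74 ± 0.992 CPM in deficient MZ cells and 5.18 ± 0.921 CPM in FO cells (SD, n = 4 each), with a log2 difference of -0.42, an interval of -0.88 to 0.03 and an adjusted p of 0.0792 by edgeR.

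Ordered by mean level, 4 genes were lowest in control MZ cells and highest in FO cells: Bcl2, Bcl2l1, Bak1 and Pmaip1. Bcl2l11 was highest in FO cells and lowest in deficient MZ cells. The other 5 genes were lowest in FO cells. Deficient and control MZ libraries overlapped for every gene but Bax. FO libraries overlapped at least 1 MZ group for Bcl2 and Bcl2l1 and stood apart from both for the other 8 genes. How many of all genes stood apart in these ways was not counted, so neither count is a result about the family. Between control MZ and FO cells, 81.5% of all tested genes were called.

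Per length, as CPM per kilobase of exon, the genes of each role could be set against each other. Mcl1 held 84.5 ± 1.25% of the summed pro-survival level in deficient MZ cells, 85.2 ± 1.21% in control MZ cells and 86.4 ± 1.21% in FO cells (SD, n = 4 each). Its level was 287, 292 and 230 CPM per kilobase in that order of groups, and that of Bcl2 was 19.9, 18.2 and 22.1 CPM per kilobase. Bcl2l1 stayed under 1% of the sum, at 0.241%, 0.185% and 0.424%. The pro-survival sum covers the 5 pro-survival genes of the 10 and is not the level of all pro-survival genes. It leaves out, among others, Bcl2l2, at 2.24 CPM in control MZ cells and 19.7 CPM in FO cells.

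Within both other roles the shares in MZ and FO cells lay further apart. Bax held 99 ± 0.184% of the effector level in deficient MZ cells and 98.9 ± 0.142% in control MZ cells, against 60.1 ± 2.7% in FO cells (SD, n = 4 each), and Bak1 held the rest. The BH3-only sum covers Bcl2l11, Bbc3 and Pmaip1 and is not the level of all BH3-only genes. It leaves out, among others, Bid, at 290 CPM in control MZ cells, and Bmf, at 83.5 CPM in FO cells. Of this sum, Bbc3 held 33.1 ± 2.94% in deficient MZ cells and 32.7 ± 9.47% in control MZ cells, against 3.42 ± 0.423% in FO cells. Pmaip1 held 37 ± 2.12% in deficient MZ cells, 35.7 ± 7.16% in control MZ cells and 57.4 ± 5.25% in FO cells. These shares were not tested and follow from the levels above. The longest annotated transcripts of Bax and Bbc3 are rich in G and C, at 63.5% and 65.2%. Both lie in decile 10 of tested genes, in which the median log2 difference between control MZ and FO cells was 0.20. The longest transcript of Bak1 has 57.1% G and C and lies in decile 9, where the median was 0.13.

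**Figure D3:**
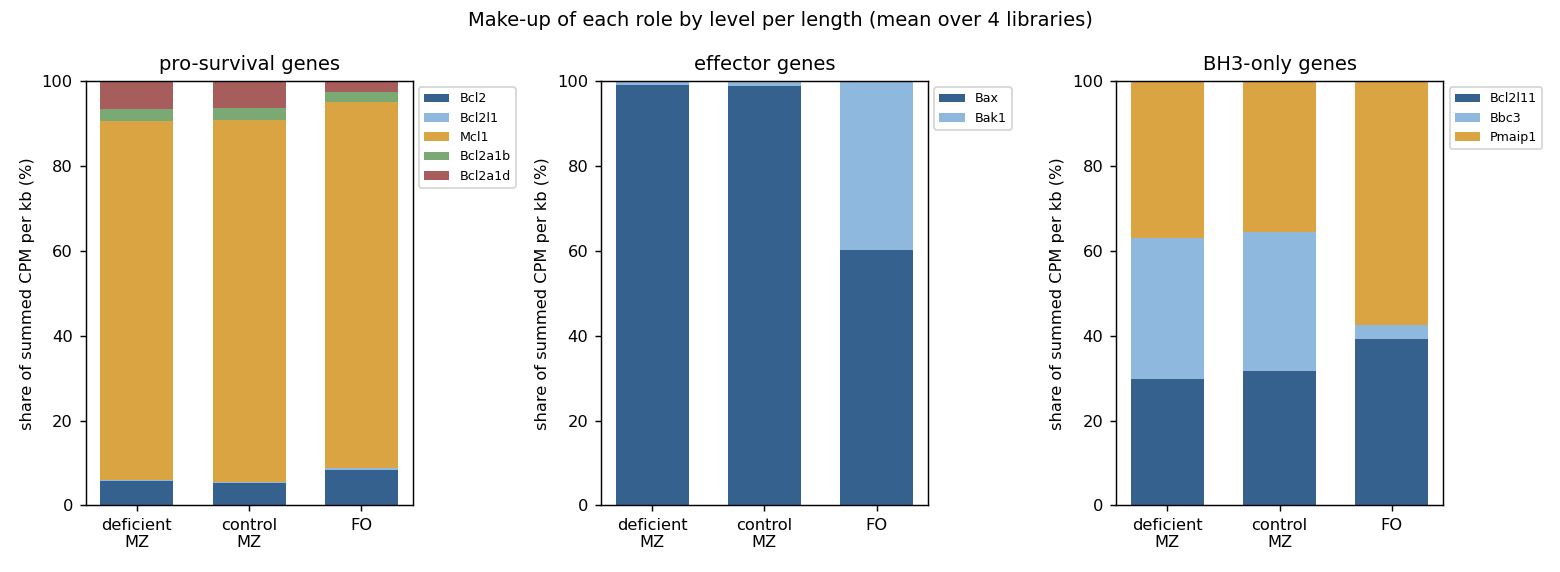
Share of each gene in the summed CPM per kilobase of those of the 10 genes with its role. Bars give the mean over 4 libraries for deficient MZ, control MZ and FO cells. Mcl1 takes most of the pro-survival bar in each group, at 84.5%, 85.2% and 86.4%, while the share of Bak1 among effectors is 0.957% and 1.12% in MZ cells against 39.9% in FO cells.

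Other genes of the apoptosis pathway were read from 7 lists. Between deficient and control MZ cells, 4 of 10 genes of the AKT and FOXO arm rose and none fell, beside 2.29% higher and 1.4% lower over all genes. They were Tsc22d3, a target of FOXO and of glucocorticoids, Sgk1, a kinase that phosphorylates FOXO proteins, Akt2, an AKT kinase, and Pik3ip1, an inhibitor of PI3-kinase. Tsc22d3 had 288, 320, 272 and 251 CPM in deficient MZ cells, against 153, 155, 165 and 92.8 CPM in control MZ cells, a log2 difference of 0.99 ± 0.14 (SE; adjusted p 0.00142, edgeR). Sgk1 had 4.56 to 6.95 CPM in deficient MZ cells, against 1.6 to 3.29 CPM in control MZ cells, a log2 difference of 1.13 ± 0.23 (SE; adjusted p 0.0141, edgeR). The groups did not overlap for either gene. Akt2 and Pik3ip1 differed by 0.56 and 0.34 (adjusted p 0.0124 and 0.0301, edgeR), and Pik3ip1 lost its call without any library but deficient replicate 1, at adjusted p up to 0.0838. At an unadjusted p under 0.05, 5 genes of the list were higher and 2 lower, and DESeq2 called 4 higher and 1 lower. The list's median log2 difference was 0.17, against 0.00 over all genes. The list was chosen with earlier results of these data known, so its count and median beside those of all genes are no test of the list.

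Of 16 genes of the apoptosome, caspases and their inhibitors, 1 rose and 1 fell in deficient cells. Cycs, which encodes cytochrome c, had 95, 80.3, 68.1 and 69.3 CPM in deficient MZ cells, against 55.8, 51.8, 59.7 and 48.2 CPM in control MZ cells. Its log2 difference was 0.53 ± 0.10 (SE; adjusted p 0.0116, edgeR), and deficient replicate 1 was its highest library, as for Bax.

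Of 11 tested genes among 16 other BCL2 family genes, 1 rose. It was Bcl2l12, an atypical member, with 17.9 to 21.5 CPM in deficient MZ cells against 14.9 to 16 CPM in control MZ cells. Its log2 difference was 0.35 ± 0.09 (SE; adjusted p 0.0458, edgeR), a call lost without any library but deficient replicate 2, at adjusted p up to 0.109. By edgeR none passed among 10 death receptor genes, 10 genes of the p53 arm, 6 genes of MCL1 protein turnover or 8 NF-kappaB subunits and survival receptors, whose median log2 differences were 0.02, 0.04, -0.05 and 0.02. At an unadjusted p under 0.05, 2, 4, 1 and 2 of their genes stood apart, and DESeq2 called 0, 1, 0 and 1.

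Between control MZ and FO cells, genes of every list passed in both directions, as most genes did. In the AKT and FOXO arm 2 of 10 were higher and 8 lower, with a median log2 difference of -0.75. Foxo4 and Foxo3 encode FOXO transcription factors, of which FOXO3 is a known activator of Bcl2l11 and Bbc3. They averaged 2.7 and 7.94 CPM in control MZ cells, against 66.3 and 92.3 CPM in FO cells. Their log2 differences were -4.59 ± 0.08 and -3.51 ± 0.08 (SE; adjusted p 6.06e-13 and 3.31e-12, edgeR), and that of Sgk1 was -3.60. Of 6 genes of MCL1 protein turnover, 1 was higher and 5 lower. Huwe1, a ubiquitin ligase for MCL1, differed by -2.03 and Usp9x, which removes that ubiquitin, by -1.13. Dnm1l, a mitochondrial fission gene, differed by -0.75.

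The other BCL2 family genes divided into 4 higher and 6 lower of 10 tested. Bid, the BH3-only gene that links death receptors to mitochondria, averaged 290 ± 16.5 CPM in control MZ cells and 56.8 ± 2.44 CPM in FO cells (SD, n = 4 each). Bmf, a further BH3-only gene, averaged 6.83 ± 0.774 CPM in control MZ cells and 83.5 ± 17.8 CPM in FO cells (SD, n = 4 each). The log2 differences were 2.37 for Bid, -3.58 for Bmf and -1.06 for Bcl2l12. Neither Bid nor Bmf overlapped between the groups, and Bmf had its lowest FO level, 57 CPM, in replicate 4.

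Of 16 genes of the apoptosome list, 8 were higher and 8 lower. Xiap, an inhibitor of caspases, differed by -2.82, the mitochondrial protease gene Htra2 by -1.05 and the mitochondrial nuclease gene Endog by 1.81. Among 10 death receptor genes 6 were higher and 3 lower. Mlkl, the effector of necroptosis, differed by 2.72, Cflar, an inhibitor of caspase-8, by -2.03 and the adaptor Tradd by 0.85. Of 10 genes of the p53 arm 4 were higher and 5 lower. Sesn2, a stress-induced gene, differed by 2.06, Mdm4, an inhibitor of p53, by -1.79 and Ccng1 by 0.69. Of 8 NF-kappaB and receptor genes 4 were higher and 3 lower, with Nfkb1 at -1.85, Relb at 0.87 and Rel at -1.24. These values are log2 differences of control MZ over FO cells, all with adjusted p under 0.05 by edgeR.

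**Figure D4:**
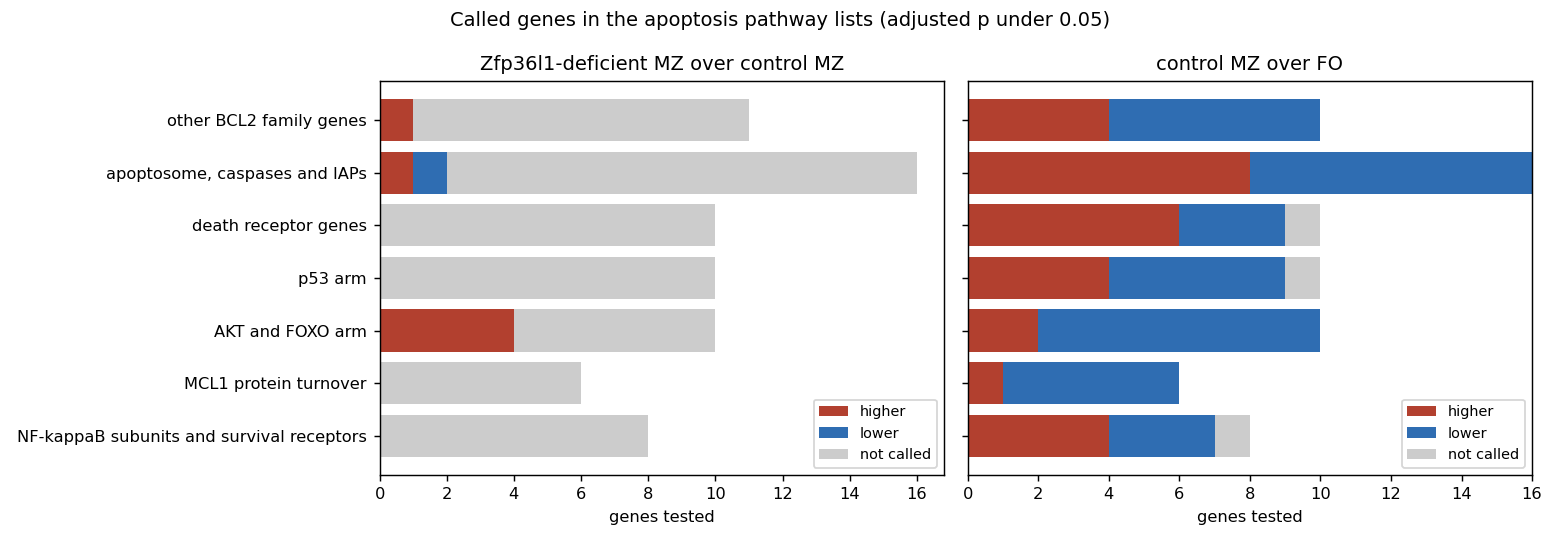
Number of tested genes called higher, lower or not called in each of 7 apoptosis pathway lists. Deficient MZ over control MZ is on the left and control MZ over FO on the right. The lists were chosen with earlier results of these data known. On the left the AKT and FOXO arm has 4 of 10 genes higher and 4 lists have none called, where 3.7% of all genes were called; on the right most genes of every list are called, as were 81.5% of all genes.

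The genes whose levels followed 3 of the family most closely over the 12 libraries were ranked by the root mean square difference of centred log2 CPM among 8516 protein-coding genes. Plekhm3, Vamp1 and Kif3c lay nearest to Bcl2, at 0.115, 0.146 and 0.146, where the median gene lay at 0.383. Snx4, Poldip3 and Sec61a1 lay nearest to Mcl1, at 0.041, 0.045 and 0.045, with a median of 0.320. Usp37, Gcc2 and Man1a2 lay nearest to Bcl2l11, at 0.066, 0.069 and 0.071, with a median of 0.429. These ranks describe the 12 libraries, which share the differences in cell type and library given above.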

How the data were processed

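RNA-seq of 12 libraries was analysed from the gene counts that the authors deposited. Per the submitters' processing notes, reads were trimmed with Trim Galore, aligned with TopHat2 2.0.12 to GRCm38 and counted with HTSeq. The sources used here name no annotation release or strand setting. Log2 fold changes and adjusted p-values of the authors' deposited DESeq2 1.10.1 tables are quoted only where named. Of 43629 gene IDs, 42548 matched the GENCODE M21 annotation of the same build, which gave symbols, coordinates, exon lengths and sequences. The sequences printed come from its transcripts.

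For each comparison, a model was fitted to the 8 libraries concerned with edgeR 4.0.16 in R 4.3.3 (TMM scaling, filterByExpr by group, glmQLFit and glmQLFTest, Benjamini-Hochberg over all tested genes, threshold 0.05). The standard error is the absolute log2 difference over the square root of the test statistic. The test was checked on simulated data. None of 18 replicate pairs held identical counts. Alternatives were DESeq2 1.42.0 (its size factors, and its test), no filter, 1 fit of all 12 libraries, A1 copies summed, a replicate block, each library left out and, added after the data were seen, a robust dispersion. The members, pathway lists and markers were chosen with earlier results of these data known. Of each pathway list, the called genes of smallest p were named, up to 4 between deficient and control MZ cells and up to 3 between control MZ and FO cells; genes nearest to Bcl2, Mcl1 and Bcl2l11 were sought among genes averaging 3 or more on the log2 CPM scale. A named gene of the pathway lists is not reported here.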

Additional observations from a re-analysis of the deposited data

Results flagged for a closer look

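Among the 30 combinations of gene and group examined, 3 held a library far from the other 3 of its group by Dixon's test, which chance gives in about 1 of 20 groups. Control MZ replicate 4 had 3.42 CPM of Bcl2l1, where the others had 2.67 to 2.72 CPM. FO replicate 4 had 66.6 CPM of Bak1, where the others had 52.3 to 53.8 CPM. The same FO library had 1.77 CPM of Bbc3, where the others had 1.17 to 1.25 CPM. Among FO libraries it also had the highest sums of macrophage and monocyte (30.5 CPM), erythroid and platelet (7.5 CPM), dendritic cell (10.8 CPM) and plasma cell (21.5 CPM) markers. Its B cell sum, 11200 CPM, lay within the FO range of 10900 to 11300 CPM. The part of other cells in these levels was not tested. Neither Bak1 nor Bbc3 lost its call between control MZ and FO cells without any 1 library: the log2 differences stayed within -5.03 to -4.90 for Bak1 and 2.72 to 3.01 for Bbc3.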

How the results depend on the processing

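With each library left out in turn, 0 to 1 of the 10 genes were called between deficient and control MZ cells, 9 to 10 between control MZ and FO cells and 8 between deficient MZ and FO cells. In the first comparison Bax kept a log2 difference of 0.30 to 0.31 and its call in the 6 other settings. Genes not called there changed sign in some fits without 1 library, and the cause was not tested. The log2 ranges were -0.07 to 0.00 for Mcl1, -0.14 to 0.11 for Bcl2a1b, -0.08 to 0.06 for Bcl2a1d and -0.12 to 0.21 for Bak1. They were -0.11 to 0.05 for Bcl2l11, -0.02 to 0.22 for Bbc3 and -0.06 to 0.27 for Pmaip1. With A1 copies summed, the sum read 0.01, where Bcl2a1d alone read -0.01. Between control MZ and FO cells the summed A1 difference was 1.35, against 0.63 for Bcl2a1b alone (1.39 and 0.66 for deficient MZ over FO). Bcl2 passed with no filter on low counts, at -0.28 (adjusted p 0.042, edgeR). Bcl2l1 passed between deficient MZ and FO cells with no filter and in the fit of 12 libraries, at -0.47 and -0.45. The titles share numbers 3 and 4 (control MZ, FO) and 7 and 8 (deficient MZ, FO) across different genotypes. Correlations of same-numbered deviations over 11743 genes were -0.06, -0.14, 0.17 and 0.00. The samples were treated as unpaired, and whether a shared number stands for a shared batch was not tested. A replicate block rests the difference on same-numbered libraries only, 3 and 4 for control MZ and FO cells, 7 and 8 for deficient MZ and FO cells. With it, 10 genes were called between control MZ and FO cells, where Bcl2 changed sign to 0.17. Between deficient MZ and FO cells 9 were called, where Bcl2 passed at -0.19. The block gave 9951 and 11042 calls over all genes in these comparisons, against 11278 and 11293 without it. Bcl2l12 lost its call between deficient and control MZ cells with no filter, at 0.35. Over all genes, 517 were called between deficient and control MZ cells, 1057 by DESeq2, 788 in the fit of 12 libraries and 253 without control replicate 4. The median of all genes between control MZ and FO cells was 0.05, and 0.23 by DESeq2 and 0.20 with no filter. Depth limits Bcl2l1, Bak1 in MZ cells and Bbc3 in FO cells, which rest on 83 to 205, 44 to 91 and 38 to 56 counts per library.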

Other observations

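Bcl2a1a, a further A1 copy, had 9 to 32 counts per deficient MZ library and 7 to 15 per control MZ library. Its level was 0.933, 0.611, 0.673 and 0.287 CPM in deficient MZ cells, against 0.27, 0.371, 0.361 and 0.178 CPM in control MZ cells. Deficient replicates 1, 2 and 7 lay above all control libraries and replicate 8 lay within their range. The log2 difference was 1.08 ± 0.40 (SE) with an adjusted p of 0.161 by edgeR's quasi-likelihood test. In FO libraries Bcl2a1a had 0 to 4 counts. Bcl2a1c, the remaining copy, had at most 3 counts in any library.

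Ggnbp1, the gene on the other strand at Bak1, had 13.1, 10.5, 14.8 and 15.7 CPM in deficient MZ cells, against 5.79, 6.29, 5.25 and 7.19 CPM in control MZ cells. The groups did not overlap, and the log2 difference was 1.13 ± 0.15 (SE; adjusted p 0.00085, edgeR). Bak1 itself, at 1.4 to 2.65 CPM in deficient MZ cells and 1.47 to 1.91 CPM in control MZ cells, overlapped between the same libraries.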
